A study of Mus musculus with 14 samples.

Results

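The promoters described here belong to 9 genes of the bone morphogenetic protein (BMP) system: the ligands *Bmp2*, *Bmp4*, *Bmp5*, *Bmp6* and *Bmp7*, the related growth and differentiation factors *Gdf5* and *Gdf6*, and the antagonists *Nog* and *Grem1*. They were chosen by gene name. A bait fragment, a HindIII fragment captured because it holds a promoter, was taken for each gene that had a GENCODE vM21 transcription start site on it, which gave 10 of the 22171 bait fragments found in the lists. *Bmp4* has 2 neighbouring baits, here called the 5′ bait, which holds the starts of the coding transcripts, and the 3′ bait, which holds the start of a retained-intron transcript. The other 8 genes have 1 bait each. The *Bmp4* 3′ bait also holds start sites of *Gm15217* and *Gm15222*, the *Gdf5* bait of *Gm15557* and the *Nog* bait of *Gm2018*. Contacts of these shared baits cannot be assigned to 1 gene alone.

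Promoter capture Hi-C (PCHi-C) was performed on mouse cranial neural crest cells (CNCCs), the migratory cells that build most of the face and the external ear, in 14 libraries of 7 conditions with 2 replicates each. At E10.5 the cells came from the frontonasal process (FNP), the maxillary process (Mx), the mandibular process (Md) and the second pharyngeal arch (PA2), while the later cells came from the pinna, the visible part of the ear that grows mainly from PA2, at E12.5 or E14.5. These wild-type cells carried Wnt1::Cre and a ROSA RFP reporter, in which the Wnt1 promoter drives Cre in the neural crest, and were sorted by RFP. The remaining condition was PA2 at E10.5 from *Hoxa2* knockout embryos, homozygous for the Hoxa2EGFP allele and sorted by GFP, so that the genotype and the reporter used for sorting cannot be told apart. FNP, Mx and Md cells express no *Hox* genes and are called *Hox*-negative, and wild-type PA2 and both pinna conditions are called *Hoxa2*-expressing, with 6 libraries in each group. All *Hox*-negative libraries are of E10.5, while the *Hoxa2*-expressing group includes the later pinna. Tissue, and in part stage, thus cannot be told apart from *Hoxa2* expression in that comparison. E14.5 tissue was dissociated with papain and all other tissue with trypsin, so dissociation cannot be told apart from the last stage. The labels do not say whether replicates came from separate litters, and the p-values measure only the spread between these libraries.

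BMPs are secreted dimers of the TGF-β superfamily that bind type I and type II serine/threonine kinase receptors and act through SMAD proteins. Noggin and gremlin bind the ligands outside the cell and keep them from their receptors, so that the local signal depends on where ligands and antagonists are made. Many genes of this family lie in large intergenic regions with distant enhancers. In the face, BMP signals pattern the jaw primordia, the teeth and the skeleton, and in the mouse loss of *Bmp5* gives the short-ear phenotype, in which the cartilage of the external ear fails to grow normally.

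Each library was a list of fragment pairs with a CHiCAGO score, which is high where a pair was read more often than expected at that distance. The lists hold no score below 5, and a pair that a library did not list was given a score of 0. The libraries listed between 113670 and 186248 pairs within chromosomes. The lowest of these numbers belongs to knockout replicate 1 and the highest to E12.5 pinna replicate 2. Md replicate 1 and replicate 2 of the E12.5 pinna are named as merged libraries, and 46.5% and 62.7% of their pairs joined different chromosomes, against 2.64% to 5.61% in the other 12 libraries. Both were kept, all values below are of pairs within a chromosome, and results that change without both are named. The lists hold no RNA, so the loss of *Hoxa2* could not be checked by expression. They measure pools of cells, in which fewer cells with a contact and a weaker contact in each cell cannot be told apart.

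The 10 baits had 455 partner fragments on their own chromosomes, of 837141 such pairs in all baits and libraries. Of the 455 pairs, 200 were listed in a single library, which is 44.0%, against 63.4% of all pairs. A further 72 were listed in 7 or more libraries and 4 in all 14. Of the 455 partners, 396 lay downstream and 59 upstream of their gene, but *Nog* had 7 upstream and 6 downstream. Over the 7 member baits whose start sites all run in 1 direction, 204 of the 212 pairs listed in at least 2 libraries lay downstream of the promoter (96.2%), while for all baits of that kind it was 52.1%. The median distance of these pairs was 410 kb, against 374 kb for all such baits.

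The sequences shown are those of the promoters whose baits passed a comparison between conditions, *Bmp5* and *Grem1*, and of a fragment inside *Fmn1* that contacted *Grem1* at late stages alone. Promoters run from 250 bases before to 50 bases after a start site, 5′ to 3′, and come from RefSeq on GRCm38.p6. The motif TGATNNAT, the core that HOX and PBX proteins bind together, was searched on both strands, and a match is in capitals in the promoters.
Bmp5 promoter, chr9:75775115-75775414, plus strand: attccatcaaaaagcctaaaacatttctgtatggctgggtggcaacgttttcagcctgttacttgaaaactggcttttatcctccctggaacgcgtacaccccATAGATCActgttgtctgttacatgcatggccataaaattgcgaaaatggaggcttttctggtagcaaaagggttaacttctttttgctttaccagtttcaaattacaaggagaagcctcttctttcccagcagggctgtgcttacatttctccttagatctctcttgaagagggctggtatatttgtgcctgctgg
Grem1 promoter, chr2:113758599-113758898, minus strand: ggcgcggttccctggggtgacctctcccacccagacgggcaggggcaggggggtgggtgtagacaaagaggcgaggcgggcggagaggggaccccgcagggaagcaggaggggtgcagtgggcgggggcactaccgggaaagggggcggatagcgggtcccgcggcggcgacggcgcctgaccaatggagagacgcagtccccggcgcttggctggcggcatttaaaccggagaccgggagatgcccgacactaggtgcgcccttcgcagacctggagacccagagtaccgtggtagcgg
Fmn1 fragment contacted by Grem1, chr2:113535672-113535947, plus strand, capitals mark the HindIII end: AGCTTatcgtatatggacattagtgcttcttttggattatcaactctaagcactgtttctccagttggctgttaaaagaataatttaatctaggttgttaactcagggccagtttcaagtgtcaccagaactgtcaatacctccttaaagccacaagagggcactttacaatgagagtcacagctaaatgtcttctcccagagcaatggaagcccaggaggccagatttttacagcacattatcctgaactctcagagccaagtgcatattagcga

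The *Bmp5* promoter had 1 match to the motif, 4 CpG dinucleotides and a GC content of 43.3%. The *Grem1* promoter had no match, 28 CpG dinucleotides and a GC content of 70.7%. Over all promoters in the table the median was 7 CpG dinucleotides and 52.7% GC, and 2906 of 32851 (8.85%) held the motif. The *Fmn1* fragment is intronic, 276 bases long, with 41.7% GC and no match, while 2409 of 15302 listed HindIII fragments of 200 to 300 bases (15.7%) held one. The letters alone say nothing of binding. The table held promoters of 4 of the 9 genes, the others being *Bmp4*, with 12 CpG dinucleotides, and *Bmp6*, with 27.

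*Bmp5* contacted more fragments in *Hoxa2*-expressing than in *Hox*-negative CNCCs, groups that also differ in tissue and in part in stage. Its bait (chr9:75772431-75778138) listed 16 and 19 fragments in FNP, 16 and 19 in Mx, and 21 and 19 in Md. It listed 27 and 29 in PA2, 24 and 26 in the E12.5 pinna and 32 and 42 in the E14.5 pinna, and 14 and 20 in the *Hoxa2* knockout PA2. All 6 *Hoxa2*-expressing libraries thus lay above all 6 *Hox*-negative ones, and both knockout libraries lay below wild-type PA2. The knockout libraries also listed the fewest pairs within chromosomes over all baits, 113670 and 120854. With 0.5 added and each library scaled to the median number of listed pairs, the values were 18.94 and 25.19 in the knockout, 29.05 and 30.21 in PA2, 16.18 to 18.41 in the *Hox*-negative and 21.13 to 34.66 in the *Hoxa2*-expressing libraries. On that scale the knockout lay above all *Hox*-negative libraries and below PA2. The unscaled means were 30 ± 6.48 (SD, n = 6) and 18.3 ± 1.97 (SD, n = 6).

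On the log2 scale of the scaled values this was a difference of 0.73 ± 0.166 (SE; adjusted p = 0.0423, limma). The fit counted the 6 libraries of each group as independent, although replicates of 1 condition are not. Its SE and p-value thus do not take the condition as the unit. It was the 1 member bait called of 8 tested in this comparison, in which 1.44% of all baits were called, 0.902% higher and 0.539% lower in *Hoxa2*-expressing cells. It was also the 1 member bait of 8 whose scaled values did not overlap between the groups, which held for 1.52% of all baits. The difference lay between 0.67 and 0.83 in the 24 alternatives that gave a value, but its adjusted p ranged from 0.0112 to 0.104. The call was lost without the trend, the library scaling or the filter, without any 1 of the 6 *Hox*-negative libraries, without E12.5 pinna replicate 1 and without either E14.5 library, and held without both merged libraries (adjusted p = 0.0406). The knockout against wild-type PA2 gave -0.44 for *Bmp5* (adjusted p = 0.507, limma) and E14.5 against E12.5 pinna gave 0.50 ± 0.27 (SE; adjusted p = 0.645), neither called.

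**Figure D1:**
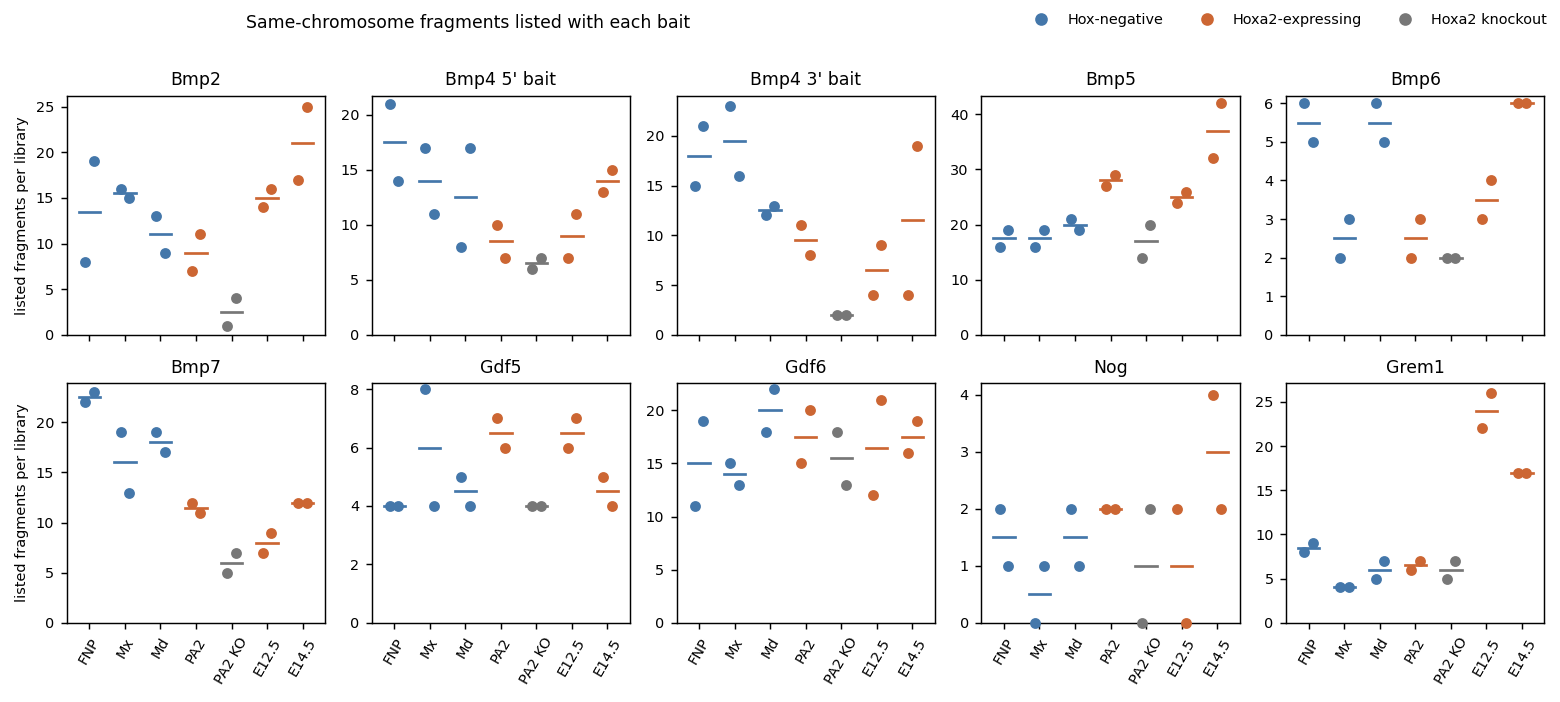
Number of listed partner fragments (y axis) of each BMP ligand and antagonist bait (panels) in the 14 libraries, by condition (x axis). Points are libraries and bars condition means, with blue for *Hox*-negative, orange for *Hoxa2*-expressing and grey for *Hoxa2* knockout cells. The *Bmp5* points of the PA2 and pinna conditions, 24 to 42, lie above those of FNP, Mx and Md, 16 to 21.

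Of the 82 partners of *Bmp5*, 81 lay downstream and 52 were listed in at least 2 libraries. Most fell into 2 stretches of neighbouring fragments, which were drawn together wherever partners listed in at least 2 libraries lay within 20 kb of each other. The first covers 74.6 kb and 29 fragments in *Hmgcll1*, a gene for a lyase of ketone body metabolism, 306.7 to 374.4 kb from the promoter (chr9:76081697-76156322). Its summed score was 59.8 and 71.3 in FNP, 59.5 and 74.2 in Mx, and 105 and 66.6 in Md. It was 125 and 118 in PA2, 116 and 124 in the E12.5 pinna and 131 and 144 in the E14.5 pinna, and 63.9 and 83.5 in the knockout. Every *Hoxa2*-expressing library was above every *Hox*-negative one here (means 126 ± 10.1 and 72.7 ± 16.8, SD, n = 6 each). Scaled to the median number of listed pairs, the stretch was at 56.0 to 89.7 in the *Hox*-negative, 98.8 to 133 in the *Hoxa2*-expressing and 83.4 and 103 in the knockout libraries, so that the knockout lay between 121 and 132 in PA2 and the *Hox*-negative mean of 67.2 ± 12.1 (SD, n = 6).

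The second stretch covers 81.0 kb and 14 fragments over *Gfral* and *Hcrtr2*, genes of a receptor for GDF15 and of an orexin receptor, 406.6 to 480.5 kb away (chr9:76180702-76261663). Its summed score was 22.9 and 37.9 in FNP, 36.8 and 28.3 in Mx, and 38.2 and 34.9 in Md. It was 45.5 and 59.0 in PA2, 52.7 and 74.2 in the E12.5 pinna and 71.0 and 99.7 in the E14.5 pinna, and was 19.0 and 5.45 in the knockout. Before scaling, the 3 groups did not overlap. After scaling, the *Hoxa2*-expressing libraries, at 48.1 to 81.3, stayed above all others, while knockout replicate 1, at 24.8, fell within the *Hox*-negative range of 24.4 to 36.0 and knockout replicate 2, at 6.7, below it. Both stretches were drawn from these values and were given no test. The share of other stretches that separate likewise was not counted. Some fragments entered the *Hmgcll1* stretch through a single condition. That at chr9:76142982-76156322 did so through the E14.5 pinna and that at chr9:76110499-76110737 through the knockout. Part of a gap can thus be built in.

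Single contacts of *Bmp5* showed different patterns within these stretches. The fragment at chr9:76236582-76238158 in *Hcrtr2* was listed in all 14 libraries, with scores between 5.45 in knockout replicate 2 and 22.01 in E14.5 pinna replicate 2 and a median of 10.4. Its neighbour at chr9:76226262-76236581, which holds exon sequence of *Hcrtr2*, was listed in the 12 wild-type libraries, with scores of 8.24 and 10.88 in FNP, 12.24 and 10.99 in Mx, 13.38 and 11.81 in Md, 9.23 and 14.32 in PA2, 9.54 and 21.15 in the E12.5 pinna and 12.27 and 16.59 in the E14.5 pinna. It was listed in neither knockout library. The fragment at chr9:76132829-76139885 in *Hmgcll1* was listed in Mx (6.08 and 5.86), PA2 (7.8 and 6.83), the E12.5 pinna (9.75 and 11.11) and the E14.5 pinna (8.28 and 6.51), and in neither library of FNP, Md or the knockout. This contact separated PA2 and the pinna from the knockout but not from Mx. The *Hmgcll1* fragment at chr9:76124718-76126485 was listed in Mx (5.5 and 8.02), Md (5.98 and 6.75), PA2 (5.02 and 8.8) and the E14.5 pinna (7.16 and 8.56), and in neither library of FNP, the E12.5 pinna or the knockout. Another fragment, at chr9:76110499-76110737, was listed in the 2 knockout libraries alone, at 6.6 and 5.85.

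*Grem1*, which encodes the antagonist gremlin, had its highest number of contacts in the pinna. Its bait (chr2:113757849-113761208) listed 8 and 9 fragments in FNP, 4 and 4 in Mx, 5 and 7 in Md, 6 and 7 in PA2 and 5 and 7 in the knockout. In the E12.5 pinna it listed 22 and 26, and in the E14.5 pinna 17 and 17. All 4 pinna libraries were above all 10 libraries of E10.5. This split was seen in the values, and the share of all baits that separate likewise was not counted. Over the 7 conditions *Grem1* spanned 2.41 on the log2 scale (adjusted p = 0.00365, limma F test). The baits of *Grem1*, *Bmp4* (3′ bait), *Bmp2* and *Bmp7* were called in this F test, 4 of 8 tested, while 8.23% of all baits were. The *Grem1* call held in all 23 alternatives that gave a value, with adjusted p between 0.000305 and 0.0161. With a score threshold of 10 the bait was under the filter and could not be tested.

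From PA2 at E10.5 to the pinna at E12.5, *Grem1* rose by 1.66 ± 0.359 (SE, log2; adjusted p = 0.0373, limma), the 1 member bait called, with 0.853% of all baits called. The difference lay between 1.54 and 2.29 in the alternatives, but the adjusted p reached 0.227. The call was lost with contacts beyond 100 kb alone, without the filter, without either replicate of FNP, Mx, PA2, the knockout or the E12.5 pinna, and without both merged libraries (adjusted p = 0.0777). In E14.5 against E12.5 pinna *Grem1* was at -0.52 (adjusted p = 0.76). Between all *Hoxa2*-expressing and *Hox*-negative libraries it was at 1.22 ± 0.33 (SE; adjusted p = 0.0661), and there the groups overlapped, since PA2 lay at the level of FNP and Md.

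Of the 38 partners of *Grem1*, 35 lay downstream, and 23 neighbouring fragments formed a stretch of 84.3 kb inside *Fmn1*, 187.1 to 267.6 kb away (chr2:113490232-113574563). *Fmn1* encodes formin 1, an actin regulator, and its introns are known to hold limb enhancers of *Grem1*. The summed score of this stretch was 50.4 and 57.3 in FNP, 21.8 and 22.8 in Mx, 5.1 and 33.2 in Md, 33.8 and 34.2 in PA2 and 29.7 and 39.5 in the knockout. It was 163 and 188 in the E12.5 pinna and 111 and 150 in the E14.5 pinna. The lowest pinna library was thus above the highest E10.5 library. Scaled to the median number of listed pairs, the stretch was at 4.37 to 53.6 in the *Hox*-negative and 38.7 to 48.5 in the knockout libraries. The *Hoxa2*-expressing libraries, PA2 included, were at 35.0 to 180. The stretch was drawn from these values and was given no test. Some of its fragments entered it through pinna libraries alone, so part of the gap is built in.

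In 3 fragments of *Fmn1* the contact with *Grem1* was listed in all 4 pinna libraries and in none of the 10 libraries of E10.5. The intronic fragment at chr2:113535672-113535947, whose sequence is given above, scored 6.96 and 12.86 in the E12.5 pinna, then 7.23 and 8.76. The fragment at chr2:113543611-113544008 scored 8.94 and 6.2, then 6 and 6.07, and that at chr2:113503172-113504754 scored 6.16 and 7.61, then 7.65 and 5.6. Another *Fmn1* fragment, at chr2:113504755-113506257, was listed at E12.5 alone, with 7.06 and 6.58. These contacts are a description: an unlisted pair was set to 0, and they entered the comparison of pairs through the pinna libraries alone.

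**Figure D2:**
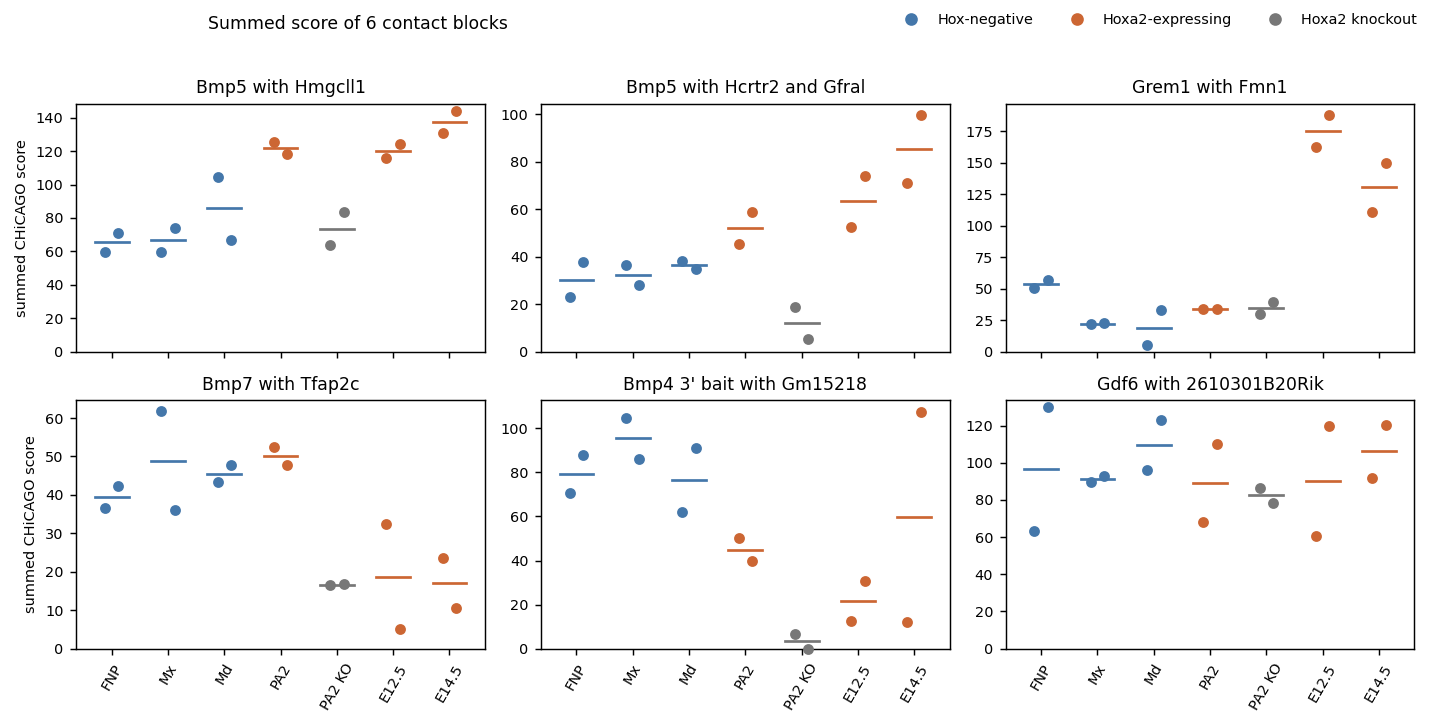
Summed CHiCAGO score (y axis) of stretches of neighbouring partner fragments in the 14 libraries, by condition (x axis), for 6 stretches of *Bmp5*, *Grem1*, *Bmp7*, *Bmp4* and *Gdf6*. Points are libraries and bars condition means, in the colours blue (*Hox*-negative), orange (*Hoxa2*-expressing) and grey (*Hoxa2* knockout). The *Grem1*–*Fmn1* stretch is at 111 to 188 in the pinna and at 5.1 to 57.3 in the E10.5 conditions.

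*Bmp7* is a ligand required for eye and kidney development, and its difference between *Hox*-negative and *Hoxa2*-expressing libraries did not pass the threshold. Its bait (chr2:172938611-172942521) listed 22 and 23 in FNP, 19 and 13 in Mx, 19 and 17 in Md, 12 and 11 in PA2, 5 and 7 in the knockout, 7 and 9 in the E12.5 pinna and 12 and 12 in the E14.5 pinna. The medians were 19 in the *Hox*-negative and 11.5 in the *Hoxa2*-expressing libraries (n = 6 each). These numbers did not overlap between the groups, but the scaled values did, with 12.75 in Mx replicate 2 and 13.21 in PA2 replicate 1. The difference was -0.77 ± 0.218 (SE, log2; adjusted p = 0.0759, limma). It passed with all lists cut to an equal number of pairs (-1.02, adjusted p = 0.0409), with contacts beyond 100 kb alone (-1.10, adjusted p = 0.0429), as a contrast of the 7 condition means (adjusted p = 0.0227) and without PA2 replicate 1.

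Over the 7 conditions *Bmp7* spanned 1.52 (adjusted p = 0.0402). That call was lost in 13 of 23 alternatives, with adjusted p up to 0.115. The libraries whose omission ended it were both of FNP, Md, PA2 and the knockout, Mx replicate 1 and E14.5 pinna replicate 2. It was also lost without both merged libraries (adjusted p = 0.0713).

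The strongest contacts of *Bmp7* lay at *Tfap2c*, which encodes the transcription factor AP-2γ of the neural crest and ectoderm. A stretch of 37.3 kb and 8 fragments there (chr2:172532734-172570064), 375.5 to 403.1 kb downstream, had summed scores of 36.6 and 42.4 in FNP, 61.8 and 36.0 in Mx, 43.3 and 47.7 in Md and 52.5 and 47.7 in PA2. It had 16.5 and 16.8 in the knockout, 32.4 and 5.15 in the E12.5 pinna and 23.6 and 10.6 in the E14.5 pinna. PA2 lay within the *Hox*-negative range, and the knockout and the pinna below it. After scaling, E12.5 pinna replicate 1, at 35.8, fell within that range, which was then 34.0 to 60.6. The strongest partner, at chr2:172547560, was listed in 13 libraries with a median score of 8.58.

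*Bmp4*, needed for mesoderm, tooth and jaw development, was seen from both its baits. They lie next to each other (chr14:46380390-46387695 and chr14:46387696-46393383) and are not independent: of their 57 and 55 partners, 35 were the same, 61.4% and 63.6%. The 3′ bait listed 15 and 21 fragments in FNP, 23 and 16 in Mx, 12 and 13 in Md, 11 and 8 in PA2, 2 and 2 in the knockout, 4 and 9 in the E12.5 pinna and 4 and 19 in the E14.5 pinna. The 5′ bait listed 21 and 14 in FNP, 17 and 11 in Mx, 8 and 17 in Md, 10 and 7 in PA2, 6 and 7 in the knockout, 7 and 11 in the E12.5 pinna and 13 and 15 in the E14.5 pinna. The 3′ bait was lowest in the knockout, also after scaling (3.27 and 3.07, against 4.59 or more elsewhere). How many of all baits were lowest there was not counted. The scaled values of the 5′ bait in the knockout, 8.49 and 9.22, lay above those of Md replicate 1 (7.28), PA2 replicate 2 (7.68) and E12.5 pinna replicate 1 (8.31). For both baits the *Hox*-negative and *Hoxa2*-expressing groups overlapped.

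The 3′ bait of *Bmp4*, shared with *Gm15217* and *Gm15222*, spanned 2.58 over the 7 conditions (adjusted p = 0.0206, limma F test). The 5′ bait, which holds the starts of the coding transcripts, was not called (adjusted p = 0.357). The call of the 3′ bait was lost with lists of equal size, without the trend, and without FNP replicate 2, Mx replicate 1 or either knockout library, with adjusted p up to 0.0862. Knockout against wild-type PA2 gave -1.70 ± 0.486 (SE; adjusted p = 0.123), and no member bait was called in that comparison, nor between E14.5 and E12.5 pinna, where 0.892% and 0.255% of all baits were. At an unadjusted p under 0.05 there were 2 and 0 member baits. The share of all baits at that unadjusted threshold was not counted, so these numbers are no result about these genes. Of all baits tested, 88 were called lower and 3 higher in the knockout than in wild-type PA2. The *Bmp4* 3′ bait passed the knockout comparison without either E14.5 library.

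The partners of both *Bmp4* baits lay around the non-coding gene *Gm15218*. The stretch of the 3′ bait (chr14:45984264-46022356, 19 fragments) had summed scores of 70.6 and 88.0 in FNP, 105 and 86.2 in Mx, 61.8 and 90.9 in Md, 50.1 and 39.8 in PA2, 6.74 and 0 in the knockout, 12.46 and 30.9 in the E12.5 pinna and 12.2 and 107 in the E14.5 pinna. The 2 libraries of the E14.5 pinna lay at the opposite ends of the wild-type values. The stretch of the 5′ bait (chr14:45951157-46021558, 22 fragments) was at 36.5 and 32.5 in the knockout and between 30.0 and 93.0 in the wild-type libraries, so there the knockout lay within the wild-type range.

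*Bmp2*, a ligand close to *Bmp4* in sequence and active in bone and heart, listed its fewest fragments in the knockout. Its bait (chr2:133548916-133555955) listed 8 and 19 in FNP, 16 and 15 in Mx, 13 and 9 in Md, 7 and 11 in PA2, 1 and 4 in the knockout, 14 and 16 in the E12.5 pinna and 17 and 25 in the E14.5 pinna. Both knockout libraries were below all 12 others, and the share of all baits with such an order was not counted. Scaled values kept this order (1.96 and 5.53, against 7.92 or more elsewhere). Among all 10199 baits tested, those called in the knockout were also mostly lower, 88 against 3 higher, at a median difference of 0.004. Low values in the knockout are thus not particular to these genes. With all lists cut to an equal number of pairs *Bmp2* was at -1.43 (adjusted p = 0.232) and the *Bmp4* 3′ bait at -1.48 (adjusted p = 0.326) against wild-type PA2. *Bmp2* spanned 2.55 over the 7 conditions (adjusted p = 0.0254, limma F test), a call lost without the trend, without knockout replicate 1 and without E14.5 pinna replicate 2, with adjusted p up to 0.182. Against wild-type PA2 the knockout was at -1.55 ± 0.467 (SE; adjusted p = 0.134), which passed without knockout replicate 2 alone (-2.30, adjusted p = 0.0306). Between *Hoxa2*-expressing and *Hox*-negative cells *Bmp2* was at 0.18 (adjusted p = 0.761).

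The partners of *Bmp2* were far away, at a median of 942.4 kb. A stretch of 11 fragments by *Hao1*, a liver oxidase gene, 905.9 to 949.0 kb downstream, had summed scores of 23.9 to 78.0 in the *Hox*-negative and 24.0 to 96.9 in the *Hoxa2*-expressing libraries, and of 0 and 23.2 in the knockout. Within it the fragment at chr2:134486559-134488371 was listed in all 12 wild-type libraries, with scores from 6.71 to 20.59, of which 12.47 and 11.9 in PA2, and in neither knockout library. Nearby fragments on both sides, chr2:134464858-134486391 and chr2:134488372-134490690, were listed in knockout replicate 2, at 5.15 and 5.34, and not in replicate 1. The difference of the fragment at chr2:134486559 between knockout and wild-type PA2 was -3.20 ± 0.332 (SE, asinh of the score; adjusted p = 0.000922, limma, pairs in at least 4 libraries). In the same fit the *Bmp5* contact with *Hcrtr2* at chr9:76226262 was at -3.14 ± 0.314 (adjusted p = 0.000796) and the *Bmp5* contact with *Hmgcll1* at chr9:76132829 at -2.69 ± 0.552 (adjusted p = 0.0336). Over all pairs in at least 2 libraries their adjusted p was 0.000101, 8.01e-05 and 0.00054. All 3 contacts were unlisted in both knockout libraries and set to 0 there, although the lists only hold scores of 5 or more. Such equal zeros add no spread, so these sizes, SEs and p-values rest on that setting. The calls of *Bmp2* at chr2:134486559 and *Bmp5* at chr9:76226262 were lost with a score threshold of 10 (adjusted p = 0.381 and 0.71) and with the score itself in place of its asinh (adjusted p = 0.0846 and 0.123).

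**Figure D3:**
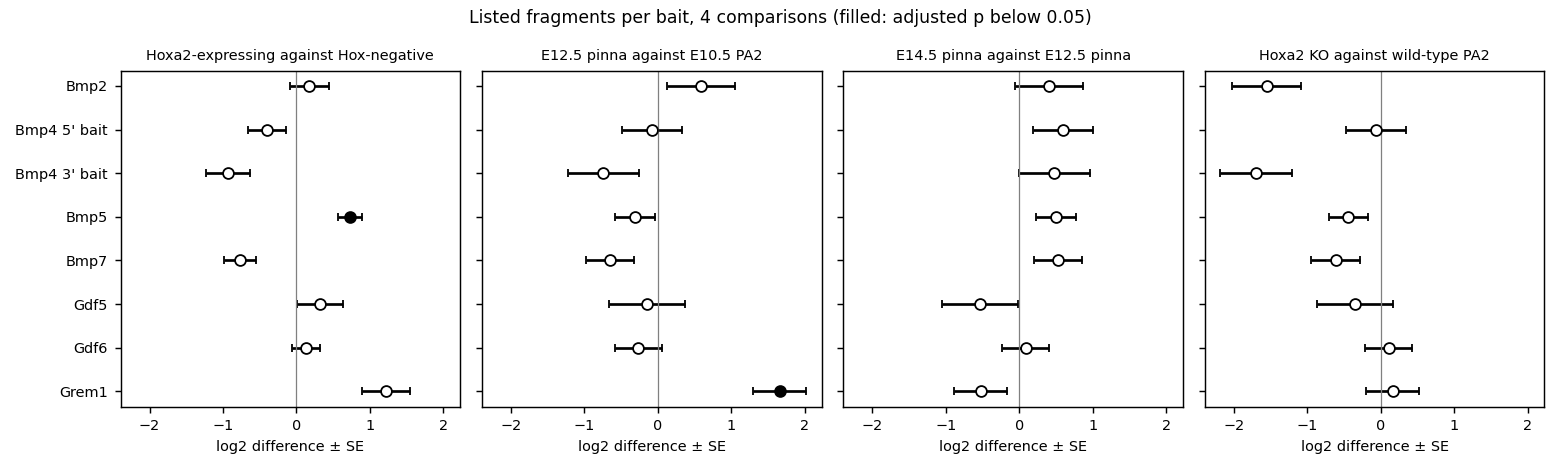
Log2 difference in the scaled number of listed fragments (x axis) for the 8 tested baits of BMP ligands and antagonists (y axis) in the 4 comparisons between conditions, with bars of 1 SE and filled points for an adjusted p below 0.05. *Bmp5* at 0.73 for *Hoxa2*-expressing against *Hox*-negative cells and *Grem1* at 1.66 between E12.5 pinna and PA2 passed the adjusted p threshold of 0.05.

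*Gdf6*, a ligand of joint and skull suture development, had listed contacts in every library. Its bait (chr4:9837760-9845257) listed between 11 and 22 fragments in the *Hox*-negative, between 12 and 21 in the *Hoxa2*-expressing and 18 and 13 in the knockout libraries, and no comparison was called (*Hoxa2*-expressing against *Hox*-negative 0.13, adjusted p = 0.744, limma). All 58 partners lay downstream. They centred on a stretch of 106 kb and 28 fragments (chr4:10792784-10899169), 952.2 to 1056.4 kb away, with summed scores from 60.8 to 130. Its strongest fragment, chr4:10873970-10875555 in *2610301B20Rik*, was listed in all 14 libraries, with scores from 9.99 to 18.28 and a median of 13.7.

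*Gdf5*, the joint ligand whose loss gives short limb bones, had 17 partners, and its bait (chr2:155934881-155947342) listed between 4 and 8 fragments in every library. Of these, 2 were listed in all 14 libraries, at *Eif6*, a ribosome biogenesis factor (median score 13.9), and at *Fam83c* (median score 12.6). No comparison was called for *Gdf5* (*Hoxa2*-expressing against *Hox*-negative 0.32, adjusted p = 0.612, limma). *Bmp6* (chr13:38339522-38349801), a ligand known for iron regulation, listed between 2 and 6 fragments per library. Its 3 partners listed in 7 or more libraries lay between 239.0 and 255.3 kb downstream, the farthest at *Bloc1s5*, a gene for an organelle assembly factor. *Nog* (chr11:89297801-89309954), which encodes noggin, listed between 0 and 4. Both were under the mean of 5 fragments needed for a test. Without that filter neither was called, with adjusted p = 0.614 for *Bmp6* and 0.747 for *Nog* over the 7 conditions (limma).

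Over single contacts, 255 member pairs were listed in at least 2 libraries and could be compared. Over the 7 conditions 19 of 255 were called, 7.45%, while 7.87% of all pairs were. From PA2 to the E12.5 pinna 5 were called, 4 higher and 1 lower (1.96%; all pairs 1.66%). From the E12.5 to the E14.5 pinna 7 were called, 6 higher and 1 lower (2.75%; all pairs 2.14%), and in the knockout 7, 3 higher and 4 lower (2.75%; all pairs 3.97%). These shares were near those of all pairs and are no result about these genes. Between *Hoxa2*-expressing and *Hox*-negative cells 0 of 237 member pairs were called (limma), while 0.087% of all pairs were. At an unadjusted p under 0.05 there were 30 member pairs. The share of all pairs at that unadjusted threshold was not counted, so the 30 cannot be set beside the 0.087%.

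The counts of called pairs rest largely on pairs listed in few libraries: 69.2% of all pairs called over the 7 conditions, and 9 of the 19 member pairs, were listed in exactly 2. Over the 146 member pairs listed in at least 4 libraries, 10 were called over the 7 conditions (6.85%, all such pairs 4.37%) and 3 from PA2 to the E12.5 pinna (2.05%, all 1.35%), the 3 *Grem1* contacts in *Fmn1* that passed this filter through the pinna. Another 2 were called from E12.5 to E14.5 (1.37%, all 0.862%) and 3 in the knockout (2.05%, all 2.09%). The 10 belonged to *Bmp5* (5), *Grem1* (3) and *Bmp2* (2). Pairs listed in 1 condition alone included *Gdf6* at chr4:10822107 in Md (6.81 and 8.27), *Gdf6* at chr4:11090885 in the knockout (6.43 and 7.11) and *Nog* at chr11:89841408 in the E14.5 pinna (5.5 and 6.27), each called on these 2 listings alone.

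Among the baits whose scaled number of fragments followed that of *Bmp5* most closely over the 14 libraries were those of *Nfkbib* and *Sirt2* (1 bait, Pearson r = 0.893), a bait on chromosome 1 with no start site of a named gene (r = 0.856) and *S100g* (r = 0.851). These are descriptions across baits that share libraries. Other genes of the pathway were taken from a list of 47 receptors, SMADs, further ligands, antagonists and targets, of which 46 had a bait and 34 baits could be tested. Over the 7 conditions 3 of the 34 were called, a share near the 8.23% of all baits. These were *Bmp8a*, a ligand (2.35, adjusted p = 0.0389, limma), *Bmpr1b*, a type I receptor (2.07, adjusted p = 0.00126), and *Msx2*, a BMP target in the skull (3.26, adjusted p = 0.00149). *Bmpr1b* was the 1 bait called between *Hoxa2*-expressing and *Hox*-negative cells, higher by 1.38 ± 0.217 (SE, log2; adjusted p = 0.00981). The median of the list in that comparison was -0.06, beside -0.04 over all baits, and in the other 3 comparisons between conditions none of the 34 was called.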

How the data were processed

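The authors mapped PCHi-C reads to GRCm38/mm10 with HiCUP and called interactions with CHiCAGO. The deposited lists give a CHiCAGO score for each pair and no read counts, so the depth is unknown and no counting interval can be given. The score weighs the p-value of a pair against a background fitted in its own library.

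The deposited pairs were read for the 14 libraries, and unlisted pairs were set to 0. The listed fragments of each bait within its chromosome were counted, scaled to the median library's number of listed pairs, and compared as log2 (prior 0.5) with limma 3.58.1 in R 4.3.3 (lmFit, eBayes with a trend), over the baits with a mean of at least 5 fragments. Pairs listed in at least 2 libraries were compared on asinh of the score. Both used Benjamini-Hochberg adjustment over all baits or pairs, at 0.05. *Hoxa2*-expressing and *Hox*-negative libraries were compared as 6 against 6, with replicates of a condition counted as independent libraries. The other comparisons came from a fit of the 7 conditions. Pairs at 0 in both replicates of most conditions have almost no spread, so their p-values are too small, and on simulated data false calls exceeded the nominal rate. This holds most for pairs listed in exactly 2 libraries.

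Contacts were named by rule: for each comparison up to 10 called member pairs with the largest difference, and for each gene the 3 partners beyond 20 kb with the highest median score. The stretches and other single contacts were picked with their values in view. The genes and lists were chosen with earlier results of these data known. Figures were drawn with matplotlib 3.10.9.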

Additional observations from a re-analysis of the deposited data

Results flagged for a closer look

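The *Gdf5* bait had 1 *Hox*-negative library far from the other 5: Mx replicate 1 listed 8 fragments, 8.33 after scaling, and its gap to the next library was 0.78 of the range of the group. The cut-off for this flag, which the gap exceeded, is one that about 1 in 20 groups of normally distributed values would pass by chance. These values are small counts, and every member bait was screened in both wild-type groups.

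Pairs between chromosomes entered no comparison. The member baits had 79 of them in Md replicate 1 and 128 in E12.5 pinna replicate 2, the libraries named as merged, and between 0 and 2 in each of the other 12 libraries.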

How the results depend on the processing

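The lists hold no scores below 5, so a contact can enter or leave a list through a small change in score, and each condition has 2 libraries. With a score threshold of 10, member baits called fell to 0 over the 7 conditions, 0 between *Hoxa2*-expressing and *Hox*-negative cells and 0 from PA2 to the E12.5 pinna, and member pairs to 2 over the conditions, 1 from PA2 to E12.5, 2 from E12.5 to E14.5 and 0 in the knockout. With lists of equal size 2 baits were called between *Hoxa2*-expressing and *Hox*-negative cells, and 3 pairs from E12.5 to E14.5 and 14 in the knockout. Without the trend 1 bait was called over the conditions and 0 between the groups. As a contrast of the 7 means, 3 baits and 16 pairs were called between the groups. Without library scaling 0 baits were called between the groups, and 2 with contacts beyond 100 kb, which left 0 from PA2 to E12.5. Without the filter 0 baits were called in both these comparisons. With the score itself 1 pair was called between the groups. With pairs in at least 4 libraries 10, 3, 2 and 3 pairs were called over the conditions, from PA2 to E12.5, from E12.5 to E14.5 and in the knockout. Without both merged libraries, an alternative chosen after seeing the data, these were 33, 8, 14 and 15, and 0 baits were called from PA2 to E12.5. Except for pairs in at least 4 libraries, these counts stand without the share of all baits or pairs called under the same setting. The same holds for the counts with 1 library left out. None of these counts is a result about these genes.

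Leaving out 1 library at a time, with a lone sample assumed to vary like the other groups, gave 1 to 5 baits over the conditions, 0 to 3 between the groups, 0 to 1 from PA2 to E12.5, 0 from E12.5 to E14.5 and 0 to 1 in the knockout. For pairs it gave 16 to 29, 0, 5 to 10, 7 to 10 and 3 to 11. No called difference changed sign. Uncalled ones did so with lists of equal size (*Gdf6* 0.026 from PA2 to E12.5 and -0.027 from E12.5 to E14.5), with summed scores (*Bmp4* 5′ bait 0.15 in the knockout) and without scaling (from PA2 to E12.5 *Bmp4* 5′ bait 0.066 and *Gdf5* 0.00, in the knockout *Grem1* -0.12 and *Gdf6* -0.17). With 1 library left out, the *Bmp4* 5′ bait lay between -0.35 and 0.19 from PA2 to E12.5 and between -0.33 and 0.20 in the knockout, *Gdf6* between -0.067 and 0.24 from E12.5 to E14.5 and between -0.16 and 0.38 in the knockout, *Grem1* between -0.015 and 0.34 in the knockout, and the *Bmp4* 3′ bait between -0.42 and 1.37 from E12.5 to E14.5. The cause was not tested.

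With the replicate number as a block, 4, 1, 1, 0 and 0 member baits and 19, 0, 5, 7 and 7 pairs were called, as without it. The numbers paired the samples weakly if at all. The deviations of same-numbered libraries correlated between -0.00116 and 0.249 over the baits, with a median of 0.0596. They were above 0.1 in 4 of 21 pairs of conditions. Whether this is a weak pairing was not tested. Of the 14 libraries, 8 correlated best with their own replicate.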
